A study of Drosophila melanogaster with 12 samples.

Results

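The change in mRNA level between *Drosophila melanogaster* embryos of the T3 timepoint (1.5 to 6 h after egg laying) and embryos of the T2 timepoint (45 to 90 min) was examined gene by gene in 1 mRNA-seq library of each. The change of a gene was taken as log2((T3 + 1)/(T2 + 1)) of its FPKM, which is fragments per kilobase of gene, normalized for sequencing depth by the authors. Genes that reached 1 FPKM in either library were kept, which gave 7820 of the 14977 genes in the deposited table. T3 embryos and T2 embryos belong to a course of 6 timepoints. The others are T1 (0 to 45 min), T4 (6 to 12 h), T5 (12 to 18 h) and T6 (18 to 24 h). Aliquots of the same poly(A) RNA were used for miCLIP, in which RNA is crosslinked to an antibody against N6-methyladenosine (m6A) before sequencing. All embryos were untreated and collected in mass. The growth notes name Canton S as the strain, whereas the strain entry of the sample records reads yw. The T3 window covers blastoderm, gastrulation and germ band stages together, so a T3 level is a mixture over these stages. The collection notes add that flies can hold eggs after fertilization, which blurs the staging of the early windows.

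The egg of the fly is loaded with message by the mother, and the nuclei of the early embryo divide rapidly with little transcription of their own. In the maternal-to-zygotic transition, RNA-binding proteins such as Smaug direct the decay of many maternal messages, while activators such as Zelda open the zygotic genome. The products of the maternal axis genes then switch on tiers of zygotic patterning genes, and the cells formed at cellularization start to gastrulate.

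The 2 libraries had similar depth, with 24053302 reads on genes in T3 and 23127955 in T2. A gene among the 7820 had a median of 1144 reads in T3 and 1330 in T2. Counting error was therefore small for most genes, and 47 of them had no read in T2, against 0 in T3. With 1 library on each side there is no replicate, so no value has an error between embryos and no test across genes was made. Each interval given with a fold is the 95% Clopper-Pearson (exact) interval of the FPKM ratio and covers counting error only. The maternal and zygotic marker genes matched the labels, with the maternal messages *osk*, *nos* and *bcd* lower in T3 and the zygotic genes *zen*, *sna*, *ftz*, *eve* and *Kr* higher. Markers of late embryos were mixed. *elav* was higher in T3, but the cuticle genes *Osi6* (3.02 in T3, 11.6 in T2) and *Osi7* (0.821 in T3, 4.12 in T2) were lower. Both were higher still in T1, with 23.0 and 10.3 FPKM. Markers of ovarian tissue were near 0, and of 20 follicle cell and eggshell genes 0 reached 1 FPKM (highest 0.72 in T3 and 0.236 in T2).

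On the scale as deposited more genes were higher than lower in T3, but this excess depended on the scaling and on the filter. In T3, 1625 genes were over 2-fold higher (20.8% of 7820) and 970 were over 2-fold lower (12.4%). Over 4-fold differences were found for 555 higher genes (7.1%) and 227 lower genes (2.9%). The remaining 5225 genes (66.8%) lay within 2-fold, and the median log2 ratio was 0.16, with quartiles at -0.48 and 0.87. Of the genes past 2-fold, 62.6% were thus higher. This share was 50.1% when both libraries were scaled to the same sum and 48.5% when T3 was scaled to T2 by the reads on genes. It was also 50.1% over the genes that reached 1 FPKM in both libraries, 893 higher and 891 lower. As deposited, 1 read was worth 1.15 times as much FPKM in T3 as in T2 for the same gene, and the sum of FPKM was 453557 in T3 and 347124 in T2. Scaling by reads on genes lowers every log2 ratio by 0.26, and scaling to equal sums by 0.39, before the pseudocount. All ratios below are on the scale as deposited. Each count of a gene list below is to be read against the 20.8% higher and 12.4% lower of all 7820 genes. At the threshold of 1 FPKM, *CG18788* was just inside with 0.43 in T3 and 1.0 in T2, and *CG1998* was just outside with 0.999 in T3 and 0.545 in T2.

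**Figure D1:**
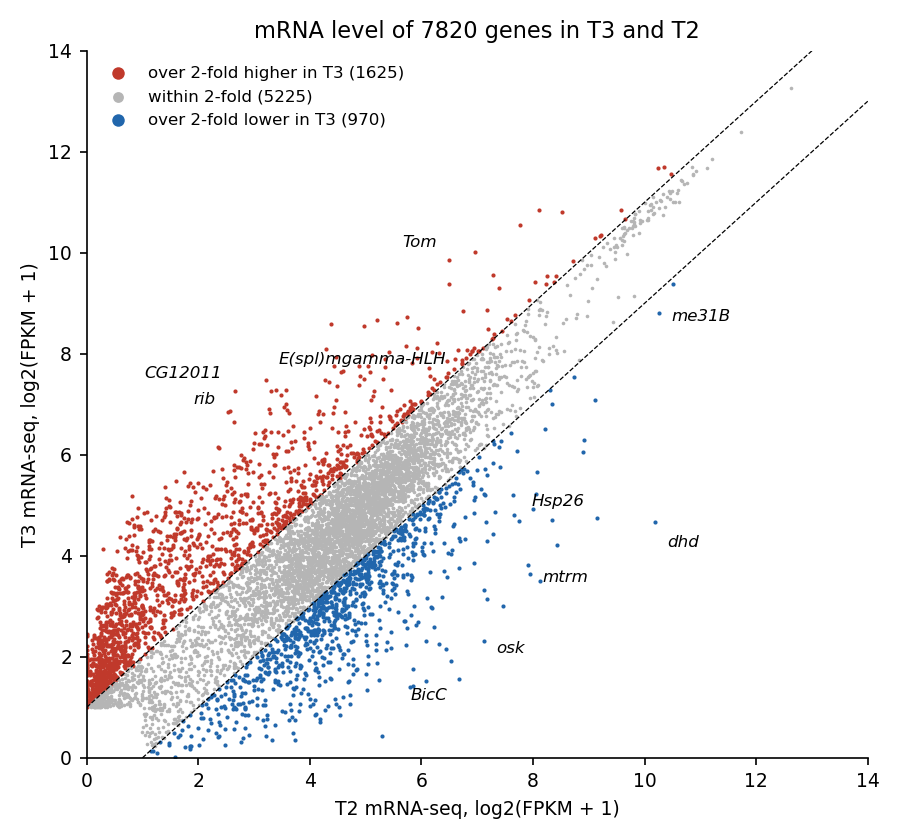
Each point is 1 of 7820 genes, with its T3 mRNA level on the vertical axis and its T2 mRNA level on the horizontal axis, both as log2(FPKM + 1). Dashed lines mark 2-fold, and the 1625 genes above the upper line outnumber the 970 below the lower line, which include *dhd*, *osk* and *BicC* at high T2 levels.

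The 12 genes with the largest increase had varied functions. *CG12011* had the largest ratio, with 153 FPKM in T3 and 5.28 in T2, which is 29.0-fold (26.0 to 32.4). Its level went on to 982 in T4. *rib*, which encodes a BTB transcription factor of salivary gland and tracheal development, had 114 FPKM in T3 and 4.79 in T2 (log2 ratio 4.31). *NimC4*, a receptor for the uptake of dying cells, had 116 in T3 and 4.93 in T2 (4.30). *Obp99a*, of the odorant-binding protein family, had 385 in T3 and 19.7 in T2 (4.22). *Him*, an inhibitor of muscle differentiation, had 24.5 in T3 and 0.649 in T2 (3.95). *Pepck*, an enzyme of gluconeogenesis, had 99.1 in T3 and 5.28 in T2 (log2 ratio 4.0). The other genes among the top 12 were *CG31002*, *CG10621*, *CG7763* and 3 genes of the Enhancer of split complex, with ratios between 3.92 and 4.38.

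The 12 genes with the largest decrease included *dhd*, *BicC*, *osk* and *mtrm*, which act in the germline or in meiosis. *dhd*, a germline thioredoxin needed to remodel the sperm chromatin, had 24.6 FPKM in T3 and 1160 in T2, a 47.1-fold lower level (43.4 to 51.2). *BicC*, an RNA-binding repressor of translation, had 1.95 in T3 and 101 in T2 (-5.12). *osk*, which organizes the germ plasm, had 3.99 in T3 and 139 in T2 (-4.81). All 3 were already lower in T2 than in T1, where *dhd* had 2950, *BicC* 280 and *osk* 228 FPKM. *mtrm*, an inhibitor of Polo kinase in meiosis, had 11.5 in T3 and 246 in T2 (-4.30). *Cyp6a19*, a cytochrome P450, had the lowest T3 level of the group, with 0.342 in T3 and 38.1 in T2 (-4.87). The glycolytic enzymes *Gapdh2* (10.3 in T3, 278 in T2) and *Tpi* (1.85 in T3, 67.0 in T2) and the chaperone *Hsp26* (25.8 in T3, 565 in T2) were also among the 12 genes with the smallest ratio. The remaining 4 were *CG8180*, *CG6084*, *CG4991* and *CG6927*, with ratios between -4.61 and -4.40.

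Zygotic genes of the segmentation cascade rose in every tier. Of the 6 gap genes, which divide the embryo into broad domains, 5 were over 2-fold higher in T3 and 0 lower, with a median log2 ratio of 2.63 against 0.16 for all 7820 genes. *Kr* had 55.8 FPKM in T3 and 7.51 in T2, which is 7.42-fold (6.86 to 8.05). *hkb* had the largest ratio of the list (24.4 in T3, 2.42 in T2), and *kni*, *gt* and *tll* had ratios between 2.50 and 2.85. *hb*, which also has a maternal message, was the exception with 31.7 in T3 and 24.3 in T2 (0.37).

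Of the 10 pair-rule genes, which act in alternate segments, 9 were higher and 1 lower (median 2.01). *slp1* had 93.4 FPKM in T3 and 12.0 in T2, *run* 26.3 in T3 and 5.01 in T2, and *eve* 16.8 in T3 and 3.20 in T2. The lower one was *ftz-f1*, a nuclear receptor whose maternal product is the cofactor of Ftz, with 7.28 in T3 and 21.1 in T2 (-1.42). All 10 genes of the segment polarity list were higher (median 2.90). Apart from *wntD*, which is also on the dorsoventral list, they set the polarity of each segment through Wingless and Hedgehog signalling. Among them, the Hedgehog receptor gene *ptc* had 60.6 FPKM in T3 and 6.04 in T2, *wg* had 24.5 in T3 and 2.22 in T2, and *gsb* had 51.5 in T3 and 4.35 in T2. *mid* had the smallest ratio of this list, with 9.19 in T3 and 1.56 in T2. All 8 homeotic genes, which give segments their identity, were higher as well (median 1.97), but from lower levels. *Ubx* had 8.58 in T3 and 0.464 in T2, an 18.5-fold difference (14.7 to 23.6), whereas *pb* had 1.16 in T3 and 0.0507 in T2, on 139 reads in T3 and 7 in T2. Because of the pseudocount, the ratios of such low genes understate their fold change. Of these 8 genes, *Ubx* had the highest T3 level, which was below those of *slp1* and *ptc*. It was above those of the segment polarity genes *inv* (6.81) and *gsb-n* (4.17). When 1 FPKM was required in both libraries, 1 homeotic gene remained, so most were kept through their T3 level.

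The 8 early zygotic blastoderm genes, most of which serve cellularization or the slowing of the nuclear cycles, were all over 2-fold higher in T3 (median 2.64). *Z600*, a mitotic inhibitor also called *frühstart*, had 216 FPKM in T3 and 31.9 in T2. *Sry-alpha*, needed for the furrows of cellularization, had 198 in T3 and 22.4 in T2, and *bnk* had 68.6 in T3 and 6.91 in T2. *nullo* had the smallest ratio of the list, with 21.8 in T3 and 7.33 in T2. The X-linked signal elements that report the number of X chromosomes were higher too. *sisA* had 52.4 in T3 and 12.8 in T2, *sc* had 12.8 in T3 and 4.15 in T2, and *upd1* had 12.2 in T3 and 1.74 in T2. Their target *Sxl*, the switch gene of sex determination, had 45.5 in T3 and 11.6 in T2, a 3.92-fold difference (3.78 to 4.06). Over the 11 genes of sex determination found in the table, 8 were higher and 0 lower. The 3 within 2-fold were *gro*, *her* and *tra2*, and *dpn* had the largest ratio (46.4 in T3, 5.33 in T2).

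The genes that act along the dorsoventral axis were mostly higher, on the dorsal and on the ventral side. Of 30 genes, 27 were over 2-fold higher and 0 lower (median 2.49). On the ventral side, the mesoderm determinants *twi* and *sna* had 54.6 and 70.6 FPKM in T3, against 9.26 and 9.76 in T2. On the dorsal side, *Ance*, a peptidase gene activated by Dpp signalling, had 155 in T3 and 9.49 in T2 (3.90), *zen* had 21.0 in T3 and 3.88 in T2, and the Dpp antagonist gene *sog* of the lateral ectoderm had 24.5 in T3 and 2.66 in T2. The 3 genes within 2-fold all act in the cell shape changes of gastrulation. These were *fog*, with 8.60 in T3 and 14.9 in T2 (-0.73), its receptor gene *mthl1*, with 10.4 in T3 and 9.45 in T2 (0.13), and *T48*, with 12.0 in T3 and 12.2 in T2 (-0.02). Each of the 3 had at least 13.2 FPKM in T1.

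Of 14 factors of mesoderm, endoderm and blood cells, 11 were higher and 1 lower (median 2.51). *bap*, a homeobox gene of the visceral mesoderm, had 16.5 FPKM in T3 and 0.224 in T2, or 73.8-fold (42.0 to 143) on 768 reads in T3 and 12 in T2. *fkh*, a gut factor, had 27.9 in T3 and 2.24 in T2. *gcm*, the switch gene of glia and blood cells, had 19.0 in T3 and 1.18 in T2. The lower gene was *cad*, which has a maternal message, with 18.0 in T3 and 65.2 in T2 (-1.80). *Mef2* (0.64) and *how* (0.85) lay within 2-fold.

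Genes induced by Notch signalling and genes of early neurogenesis rose together, and the Enhancer of split and Bearded lists had the largest list medians. The Enhancer of split complex encodes repressors and Bearded family proteins that are induced by Notch. All 11 of its genes were higher in T3 (median 3.65), 10 of them over 4-fold. *E(spl)mgamma-HLH* had 177 FPKM in T3 and 8.27 in T2, which is 21.4-fold (19.0 to 24.2), and *E(spl)m4-BFM* had 271 in T3 and 18.7 in T2. *E(spl)m6-BFM* was the exception in size, with 1.86 in T3 and 0.333 in T2. The 4 Bearded family genes found, which inhibit Neuralized in the mesoderm, were all over 4-fold higher (median 3.22). *Tom* had 930 in T3 and 89.6 in T2, and *Brd* had 405 in T3 and 35.7 in T2. *BobA* is a member of a cluster of near-identical copies and its value is uncertain (425 in T3, 52.5 in T2). All 18 proneural and neuroblast genes were higher (median 2.71), from *sc* at the low end to *nub* (28.4 in T3, 1.11 in T2). *mira*, whose protein carries cell fate factors to the basal side of the dividing neuroblast, had 215 in T3 and 20.7 in T2. *wor*, a Snail family factor of neuroblasts, had 20.2 in T3 and 0.811 in T2.

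**Figure D2:**
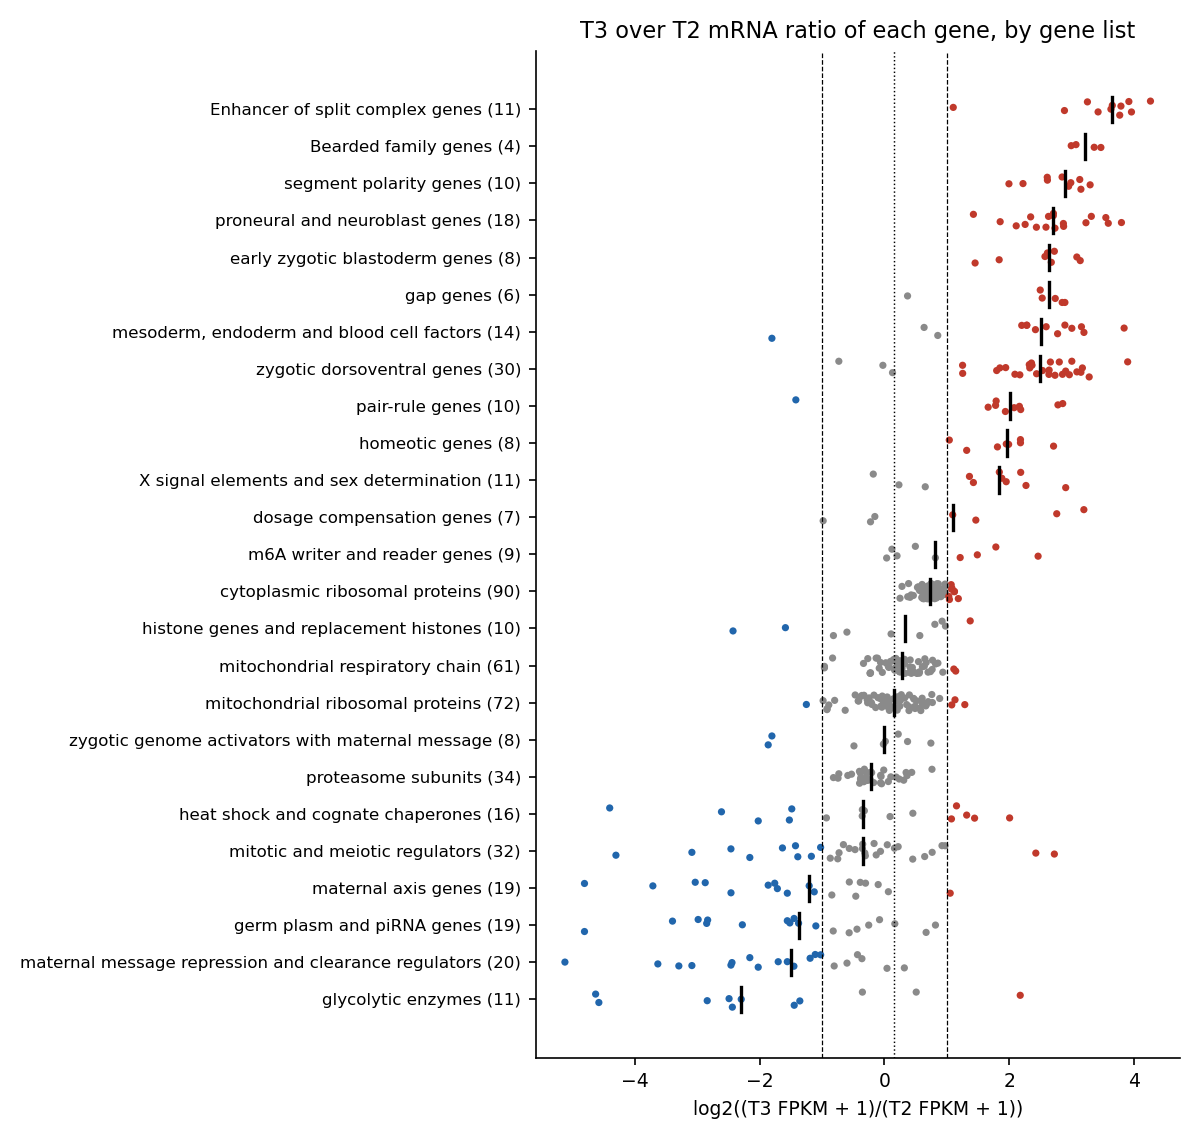
Each point is the log2 ratio of T3 over T2 of 1 gene, placed in the row of its gene list, with the number of members in brackets. Black bars are list medians, dashed lines mark 2-fold and the dotted line is the median of all 7820 genes (0.16). Among the lists shown, the medians run from 3.65 for the Enhancer of split complex to -2.29 for glycolytic enzymes, a list added after the values were seen. The late differentiation list and the follicle cell and eggshell list are not shown.

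Maternal genes of the body axes were lower in T3 as a group, but some of them changed little. Of the 19 that reached 1 FPKM out of 21, 11 were over 2-fold lower and 1 higher (median -1.21). Over all 7820 genes the shares were 12.4% lower and 20.8% higher. After *osk*, the lowest ratios were those of *exu*, which localizes *bcd* mRNA (1.90 FPKM in T3, 36.9 in T2), and *spz*, the ligand of Toll (3.04 in T3, 32.1 in T2). *bcd* itself had 15.3 in T3 and 58.3 in T2 (-1.86), *nos* 19.4 in T3 and 59.0 in T2 (-1.56), and the receptor gene *tor* 10.3 in T3 and 37.3 in T2 (-1.76). *dl*, the factor that Toll signalling sends into ventral nuclei, had 0.760 in T3 and 11.9 in T2 (-2.87). *Tl* (73.0 in T3, 95.8 in T2), *cact* (117 in T3, 125 in T2) and *stau* (38.9 in T3, 37.2 in T2) lay within 2-fold. The higher gene was *tsl*, with 1.17 in T3 and 0.0434 in T2, which rests on 70 reads in T3 and 3 in T2.

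Germ plasm and piRNA genes split into lower genes and genes within 2-fold. Of 19, 11 were over 2-fold lower and 0 higher (median -1.38), against 12.4% and 20.8% of all 7820 genes. *pgc*, which silences transcription in pole cells, had 20.5 FPKM in T3 and 154 in T2. *krimp* had 6.07 in T3 and 55.0 in T2, *piwi* 7.45 in T3 and 39.9 in T2, *armi* 2.62 in T3 and 24.8 in T2, and *del* 1.29 in T3 and 23.2 in T2. By contrast, *aub*, *tej*, *zuc*, *rhi*, *csul*, *vls* and *cuff* lay between -0.57 and 0.82. *rhi* and *cuff* encode partners of the *del* product in the transcription of piRNA clusters, with ratios of -0.25 and 0.82 against -3.40 for *del*.

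The regulators that repress or clear maternal message were themselves mostly lower in T3. Of 20 genes, 14 were over 2-fold lower and 0 higher (median -1.50), against 12.4% and 20.8% of all 7820 genes. Together the 20 genes took 0.497% of the reads on genes in T3 and 1.62% in T2. *smg*, the gene of Smaug, had 90.1 FPKM in T3 and 295 in T2, or 3.28-fold lower (3.22 to 3.34). The kinase that starts translation of *smg* is made by *png*, *plu* and *gnu*, which had 3.96, 18.0 and 29.2 in T3, against 26.3, 83.9 and 255 in T2. *aret*, the gene of the repressor Bruno, had 5.04 in T3 and 73.9 in T2, *orb* 1.03 in T3 and 19.0 in T2, and *wisp*, the cytoplasmic poly(A) polymerase of the egg, 19.2 in T3 and 109 in T2. *me31B*, an RNA helicase, was the most abundant gene of the list at both timepoints, with 449 in T3 and 1230 in T2. The deadenylase genes *twin* (-1.11) and *Not1* (-1.02) were close to the 2-fold limit. *brat* (0.04), *pum* (-0.60), *Pop2* (-0.36), *Edc3* (-0.81), *DCP1* (0.32) and *DCP2* (-0.43) lay within 2-fold.

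Genes of the cell cycle lay within 2-fold about as often as all genes. Of 32 mitotic and meiotic regulators, 21 lay within 2-fold, against 66.8% of all 7820 genes. The list held 9 lower genes, against 12.4% of all genes, and 2 higher, against 20.8% (median -0.35). Scaled to equal sums, 13 were lower and 2 higher. The cyclin genes *CycA* (415 FPKM in T3, 434 in T2) and *CycB* (568 in T3, 896 in T2), the kinase gene *Cdk1* (232 in T3, 208 in T2) and *polo* (228 in T3, 195 in T2) were within 2-fold. Of the 2 Cdc25 phosphatase genes, *twe* had 25.7 in T3 and 69.0 in T2 (-1.39), and *stg* had 80.7 in T3 and 90.7 in T2 (-0.17). The higher genes were the inhibitors of mitosis *Z600* and *trbl* (113 in T3, 20.2 in T2). The checkpoint kinase gene *grp* had 69.3 in T3 and 127 in T2 (-0.87), and *lok* had 51.7 in T3 and 140 in T2 (-1.42).

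Of 8 genes with maternal message whose products regulate zygotic transcription, 0 were over 2-fold higher in T3 and 2 were lower (*bcd* and *cad*). Their median was close to 0. Over all 7820 genes 20.8% were higher and 12.4% lower. *vfl*, which encodes Zelda, had 34.1 FPKM in T3 and 33.8 in T2, a 1.01-fold ratio (0.985 to 1.04). *Clamp* had 104 in T3 and 88.8 in T2, and *Trl*, the gene of GAGA factor, had 2.30 in T3 and 0.969 in T2 (0.74). The pseudocount kept *Trl* within 2-fold, since its FPKM was 2.37-fold higher (2.02 to 2.80). With a pseudocount of 0.1 it passed 2-fold.

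Of 9 m6A writer and reader genes, 4 were over 2-fold higher in T3 and 0 lower, against 20.8% and 12.4% of all 7820 genes. The median was 0.82, and 0.45 to 1.17 over the alternative settings. All 9 had a positive ratio on the scale as deposited, whereas 6 did after scaling to equal sums or by reads on genes, which left 3 genes over 2-fold higher. The methyltransferase gene *Ime4* had 33.8 FPKM in T3 and 5.32 in T2, which is 6.36-fold (5.70 to 7.11), and 11.3 in T1. *CG7358*, a component of the writer complex, had 87.3 in T3 and 24.6 in T2, *vir* 26.7 in T3 and 10.9 in T2, and the nuclear reader gene *YT521-B* 70.5 in T3 and 24.5 in T2. The partner of Ime4, *CG7818*, had 76.1 in T3 and 53.7 in T2 (0.50), and the cytoplasmic reader gene *CG6422* had 59.4 in T3 and 58.0 in T2 (0.04).

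Of 7 genes of dosage compensation, which raises transcription of the X in males, 4 were over 2-fold higher and 0 lower (median 1.09). The shares over all 7820 genes were 20.8% and 12.4%. The noncoding RNA *roX1* had 113 FPKM in T3 and 11.4 in T2 (3.20), and *msl-2*, the component that is translated only in males, had 21.1 in T3 and 2.25 in T2 (2.76). *roX2* (1.47 in T3, 0.157 in T2) and *mle* (29.1 in T3, 9.92 in T2) were over 2-fold higher as well. *msl-3* (31.5 in T3, 37.0 in T2) and *mof* (18.5 in T3, 20.7 in T2) lay within 2-fold. *msl-1* (21.6 in T3, 43.7 in T2) did so only through the pseudocount (-0.98), since its FPKM was 2.02-fold lower (1.94 to 2.10). With a pseudocount of 0.1, after scaling to equal sums or with T1 in place of T2, 4 genes were higher and 1 lower. Scaled by reads on genes, 3 were higher and 1 lower. In the histone list, the linker histone of the early embryo, *BigH1*, had 49.2 in T3 and 269 in T2 (-2.43), and *yem*, a chaperone gene for deposition of histone H3.3 on sperm DNA, had 12.1 in T3 and 38.3 in T2 (-1.59). *His3.3A* was higher, with 680 in T3 and 262 in T2 (1.37).

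Few genes of housekeeping complexes passed 2-fold against T2. Cytoplasmic ribosomal protein genes had positive ratios for all 90 members, but 8 of them passed 2-fold, fewer than the 20.8% of all genes (median 0.74, and 0.35 to 1.17 over the alternative settings). This count depended on the early library, since 77 of the 90 passed 2-fold with T1 in place of T2 and 31 with the mean of T1 and T2. A negative ratio was found for 2 of 90 members after scaling to equal sums and 1 of 89 after scaling by reads on genes. Ribosomal protein genes took 15.4% of the reads on genes in T3 and 11% in T2. Of 34 proteasome genes, 0 passed 2-fold in either direction (median -0.22). *Rpt6R* (1.01 in T3, 0.187 in T2) stayed within 2-fold only through the pseudocount. Its FPKM was 5.42-fold higher (2.70 to 12.0), on 47 reads in T3 and 10 in T2. With a pseudocount of 0.1, 1 proteasome gene was higher and 0 lower, and after scaling to equal sums 1 was higher and 3 lower. Against 20.8% higher and 12.4% lower over all genes, 3 of 72 mitochondrial ribosomal protein genes were higher and 1 lower. Of 61 respiratory chain genes 2 were higher and 0 lower. The medians of these 2 lists, 0.16 and 0.28, turned to -0.23 and -0.10 at the lowest over the alternative settings, so their sign depended on the scale. Chaperone genes went both ways, with 5 of 16 higher and 5 lower, where the shares over all genes were 20.8% and 12.4%. With T1 in place of T2, 1 chaperone gene was higher and 6 were lower. *Hsp26*, *Hsp27* (77.6 FPKM in T3, 479 in T2) and *Hsp83* (135 in T3, 551 in T2) were lower. Of the 5 higher genes, 4 were copies of *Hsp70*, which are nearly identical, so their reads cannot be assigned to a copy with certainty.

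The same genes were followed through the other timepoints of mRNA-seq. Their classes were defined by T3 and T2, so the contrast between these 2 libraries in medians and read shares follows from the rule. The rule did not use T1 or T4 to T6. The 555 genes over 4-fold higher in T3 had median levels of 1.43, 1.50, 16.9, 22, 15.1 and 11.1 FPKM from T1 to T6. The highest level was that of T3 for 187 of them, T4 for 186, T5 for 83 and T6 for 99, so for most the level in T3 was not the peak. In T1 and T2 both, 193 (34.8%) were below 1 FPKM, whereas 72 had at least 10 FPKM in T2. They took 7.31% of the reads on genes in T3 and 1.10% in T2. The 227 genes over 4-fold lower had median levels of 37.6, 27.3, 3.44, 5.03, 15.7 and 17.3 FPKM from T1 to T6. Their peak was T1 for 113, T2 for 20, T4 for 1, T5 for 29 and T6 for 64. They took 0.485% of the reads in T3 and 4.56% in T2. The median of the 5225 genes within 2-fold stayed between 19.4 and 23.0 FPKM at all timepoints.

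**Figure D3:**
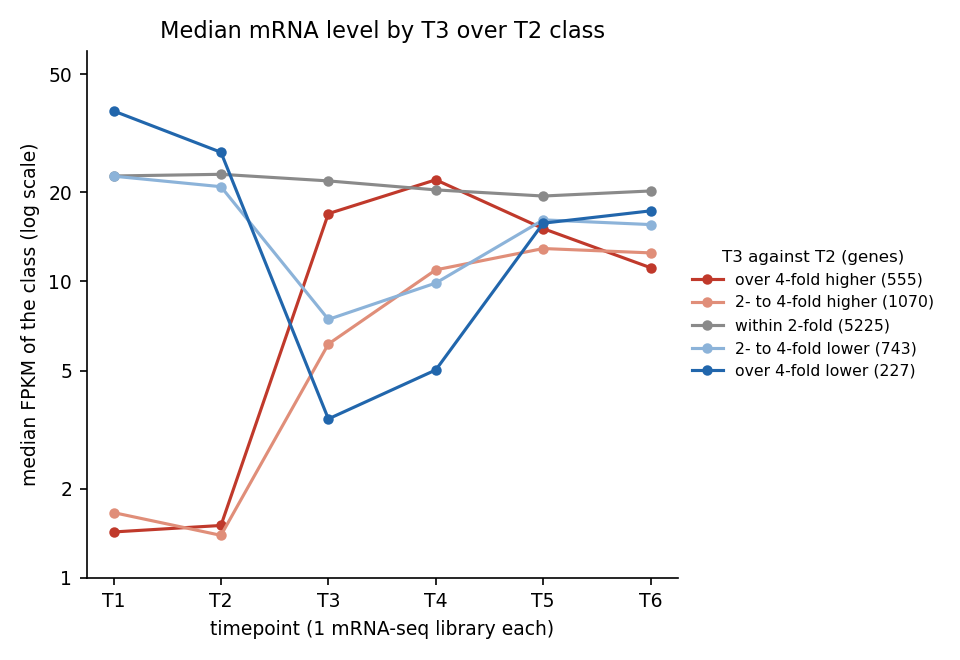
Median mRNA level in FPKM (log axis) of 5 classes of genes, defined by their T3 over T2 ratio, at the 6 timepoints. The step of each class from T2 to T3 follows from this definition. The class over 4-fold lower in T3 has a median of 3.44 FPKM in T3 and 17.3 in T6, while the class over 4-fold higher has its highest median, 22, in T4.

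A small set of the higher genes had dropped by T4. Of the 1625 genes over 2-fold higher, 74 had a T4 level under 10% of their T3 level, and of the 555 over 4-fold higher 40 did. Of the 74, 60 stayed under 10% of T3 in T5 and T6 as well, and 4 were above their T3 level in T5 or T6. *Mdr49*, named after its values were seen, was one of these, with 26.1 in T3, 1.74 in T4 and 68.7 in T6. All 8 early zygotic blastoderm genes were in this set, as were *zen*, *scw* and *wntD*. *term* had 14.2, 17.9, 112, 0, 0.198 and 5.09 FPKM from T1 to T6. Further members, singled out after their values were seen, were *SNCF* (277 in T3, 59.9 in T2), the insulator factor gene *Elba3* (86.1 in T3, 8.93 in T2) and the ecdysteroid synthesis genes *spo* (41.9 in T3, 8.05 in T2) and *phm* (26.1 in T3, 4.02 in T2). The abundant *CG10035* had 1840 in T3 and 276 in T2, and 31.1 in T4. At the other end, 10 genes over 4-fold higher in T3 had over 10 times as much in T4, among them *betaTub60D*, a tubulin gene of developing muscle (1.56 in T2, 25 in T3 and 564 in T4).

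The lower genes differed in their later levels. Of the 227 genes over 4-fold lower, 16 were below 1 FPKM in all 3 later libraries. This set held the oogenesis genes *osk*, *BicC*, *orb*, *yl* (the yolk protein receptor; 2.37 in T3, 56.7 in T2), *fs(1)Ya*, *fs(1)N*, *fs(1)M3*, *CycJ* and the maternal *gammaTub37C* (3.69 in T3, 31.6 in T2), some of them named after their values were seen. In contrast, 93 of the 227 had their highest level in T5 or T6, and 105 had at least the T2 level again in one of these libraries. The other 106 did neither. *Gapdh2* had 595, 278, 10.3, 46.6, 686 and 1670 FPKM from T1 to T6. *Mdh2*, a mitochondrial malate dehydrogenase gene, had 149, 79.1, 3.79, 18.1 and 277 from T1 to T5, and *GstD1*, a glutathione transferase gene, 435, 139, 9.05, 58.0 and 249. *dl* had 15.3, 11.9, 0.760, 2.68, 21.6 and 19.2 from T1 to T6.

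**Figure D4:**
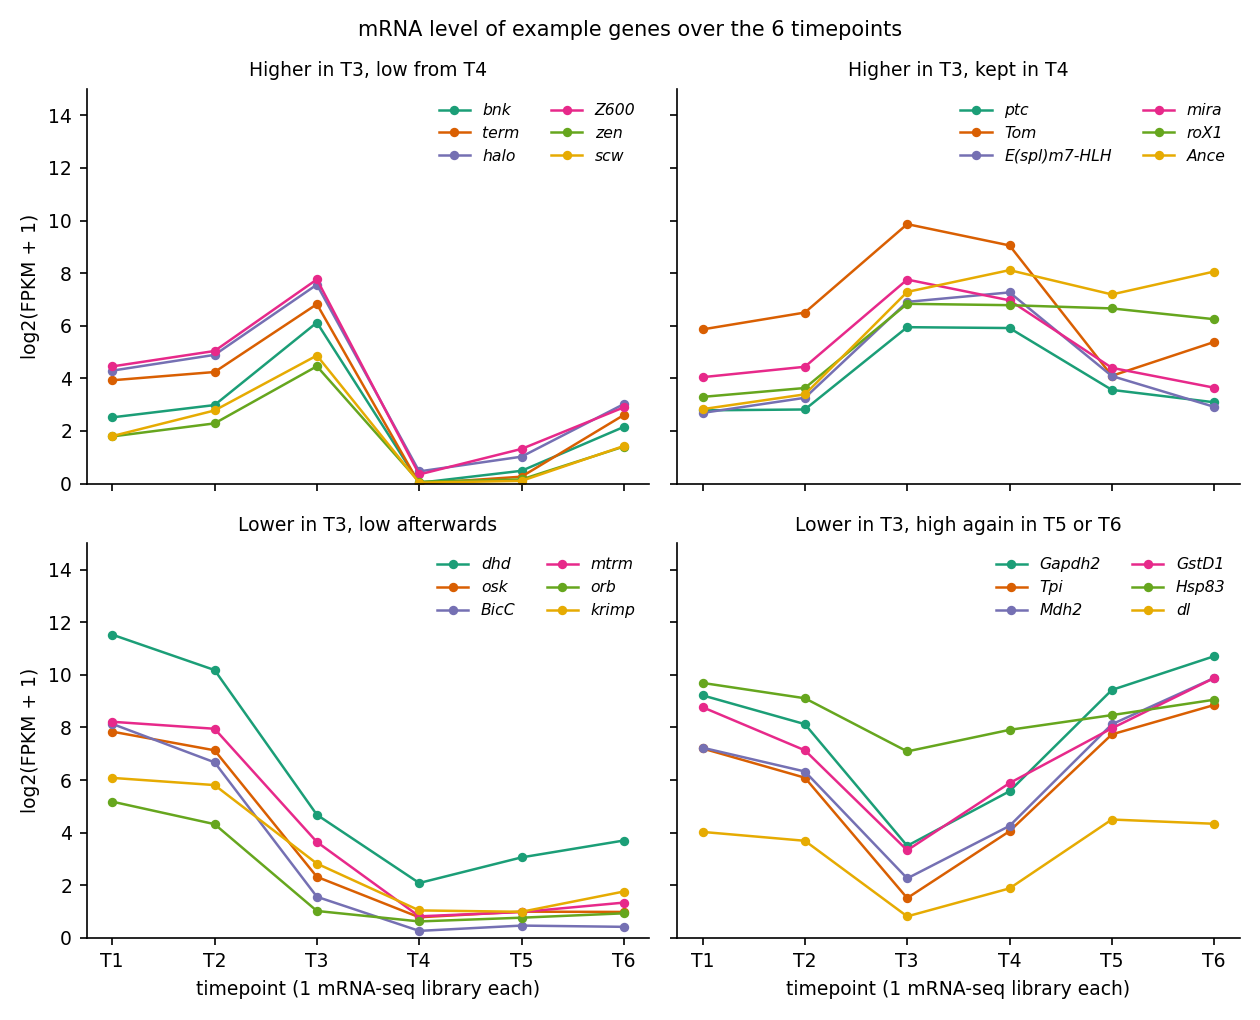
mRNA level as log2(FPKM + 1) of 6 example genes in each of 4 panels at the 6 timepoints, with 1 library a point. Blastoderm genes such as *term* peak in T3 and are at or near 0 in T4, *osk* and *BicC* stay low after T3, and *Gapdh2* and *Tpi* are lowest in T3 and highest in T6.

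Message of later stages was also measured in the early libraries. The 8 early zygotic blastoderm genes summed to 122, 179, 1095, 10.5, 8.72 and 48 FPKM from T1 to T6, so T1 already held 11.2% and T2 16.4% of the T3 sum, and T6 held more than T4 or T5. The 24 genes of late differentiation that were found, such as muscle and cuticle genes, summed to 138, 35.6 and 38.2 FPKM from T1 to T3, against 21690 in T5. The muscle actin gene *Act57B* had 43.6, 6.24 and 12.3 FPKM from T1 to T3 and 7580 in T5, and the cuticle gene *Osi6* had 23, 11.6 and 3.02 from T1 to T3 and 2850 in T5. Of 9 late genes above the threshold, 1 was over 2-fold higher (*elav*; 12.8 in T3, 1.32 in T2) and 2 lower (*Osi6* and *Osi7*), against 1 higher and 8 lower with T1 in place of T2. The part of such message in the T3 over T2 ratios was not tested. In bulk embryos, fewer cells of a type and less RNA per cell cannot be told apart.

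The miCLIP libraries of T3 and T2, made from aliquots of the same RNA, mostly changed with the mRNA. Among the 7498 genes with a miCLIP FPKM of at least 1 in either library, 27.5% were over 2-fold higher in T3 miCLIP and 18.2% over 2-fold lower. Of the genes over 4-fold higher in T3 mRNA-seq, 492 of 549 (89.6%) were over 2-fold higher in T3 miCLIP and 8 lower. Of those over 4-fold lower, 217 of 227 (95.6%) were over 2-fold lower in miCLIP and 1 higher. The median miCLIP log2 ratios of these classes were 2.61 and -2.62, against 0.18 for all 7498 genes. In the classes between 2-fold and 4-fold the shares were smaller, with 65.2% of 949 genes higher and 59.2% of 723 lower. *osk* had a miCLIP level of 23.3 FPKM in T3 and 262 in T2, *dhd* 75.7 in T3 and 2580 in T2, and *rib* 167 in T3 and 21.5 in T2. Opposite changes past 2-fold in the 2 assays were found for 81 genes, 48 of them higher in mRNA-seq and lower in miCLIP. The miCLIP libraries differed in depth, with 14484576 reads on genes in T3 and 4251686 in T2. Of the 14977 genes, 4684 were at 0 in T3 miCLIP and 7335 in T2 miCLIP. Some of the 81 genes were at 0 in 1 miCLIP library, such as *pinta* in T2 and *CG43169* in T3. The part of miCLIP depth in the opposite changes was not tested. Across the 7498 genes the Spearman correlation of the 2 ratios was 0.67, as a description of libraries that share their RNA. A miCLIP level depends on both mRNA abundance and methylation, so it is no independent sample of mRNA.

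**Figure D5:**
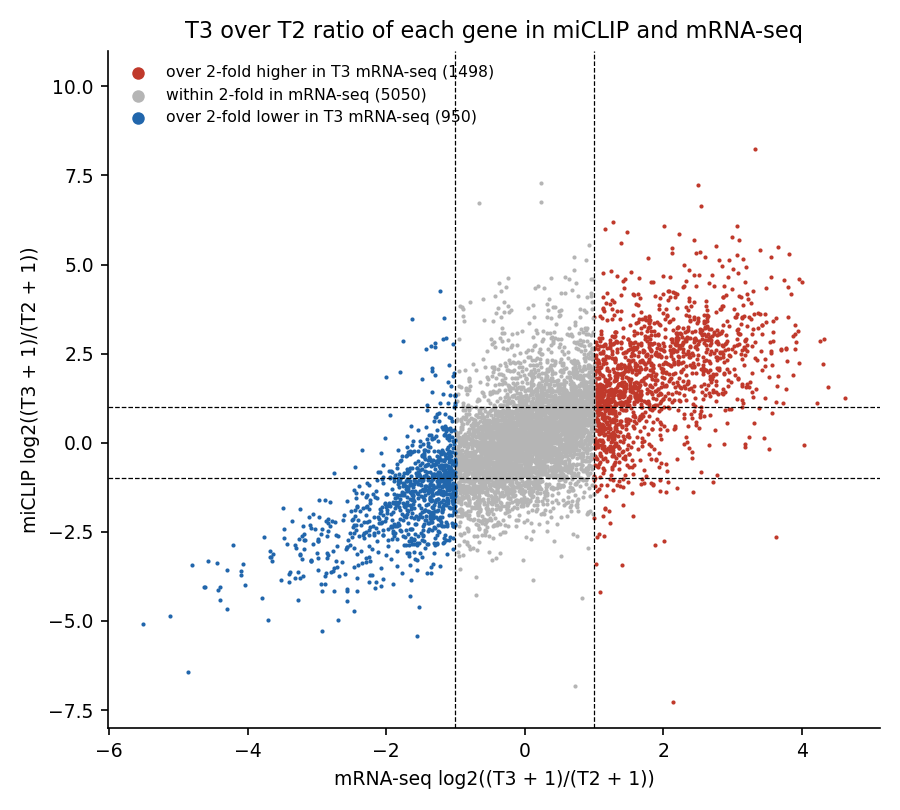
Each point is 1 of 7498 genes, with its T3 over T2 log2 ratio in miCLIP on the vertical axis and in mRNA-seq on the horizontal axis, and dashed lines at 2-fold. Most genes past 2-fold in mRNA-seq lie on the same side in miCLIP, and 81 lie past 2-fold in opposite directions.

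Gene structure differed modestly between the classes. Of the members, 7736 (98.9%) were matched to a current annotation. Among protein-coding genes, 83 of 508 (16.3%) over 4-fold higher in T3 had no intron, against 26 of 226 (11.5%) over 4-fold lower and 817 of 7468 (10.9%) of all. The *E(spl)* genes and *NimC4* were among the intronless higher genes. The median transcript length was 2238.5 bases for genes over 4-fold higher, 2013.5 for those over 4-fold lower and 1951.5 for all, and the median number of introns was 3 in every class. The X chromosome carried 13.3% of the genes over 4-fold higher, 22% of those over 4-fold lower and 16.9% of all annotated members. These properties were not tested across genes.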

How the data were processed

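Embryos were mass-collected, and 1 mRNA-seq and 1 miCLIP library was made at each of 6 timepoints. The authors trimmed adaptors with Flexbar, mapped reads with Subread-align to release 5.45 of the fly genome, counted them with featureCounts and normalized them with the DESeq package, and they deposited FPKM per gene. Strand setting, gene lengths and size factors are not given in the sources used here, so genes that overlap on opposite strands, small RNAs within introns and near-identical copies may share reads.

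The 7820 genes that reached 1 FPKM in T3 or T2 were compared as log2((T3 + 1)/(T2 + 1)) in Python 3.11.15 with pandas 2.3.3 and scipy 1.17.1. A pseudocount of 1 understates the change of low genes. Reads were recovered from the steps of single reads in the values of 13982 genes, and the other 995 were at 0 in all libraries. On simulated data 99.9% of 2622 genes were exact. Folds of 2 and 4 were set as limits, since 1 library a side allows no test. Introns, lengths and chromosomes came from Ensembl release 115 by gene symbol. Promoter and protein sequences were not analysed here.

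The named genes are the 12 largest and 12 smallest ratios, the extremes and exceptions of each gene list, and genes stated as chosen after their values were seen; further list members are given as examples. The members and lists were chosen with earlier results of these data known, and the list of glycolytic enzymes was added after the values were seen. Ribosomal protein, proteasome and respiratory chain lists were taken by name pattern. The genes *da*, *vas*, *Mhc*, *Hsc70-4*, *BobB*, *BobC* and *PyK* were not matched by symbol and are not analysed here. Alternatives were another pseudocount, 3 other filters, 2 other scalings and T1, or the mean of T1 and T2, in place of T2. Scaling by reads on genes and a filter of at least 20 reads were added after seeing the data.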

Additional observations from a re-analysis of the deposited data

How the results depend on the processing

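No paired analysis was possible because each assay and timepoint has 1 library. The counts of 1625 higher and 970 lower genes depended most on the filter and on the scale. When 1 FPKM was required in both libraries, 893 genes were higher and 891 lower, with a share of 50.1% and a median log2 ratio of 0.027. With at least 10 FPKM in either library, 836 were higher and 796 lower, with a share of 51.2% and a median of 0.040. Scaled to the same sum, set above that of either library so that the pseudocount and the filter weigh less, 1743 were higher and 1737 lower, with a share of 50.1% and a median of -0.13. Scaled by reads on genes, which was chosen after seeing the data, 1265 were higher and 1341 lower, with a share of 48.5% and a median of -0.11. The share was 59.6% with T3 scaled by the median ratio, 58.1% with T1 in place of T2 and 59.3% with the mean of T1 and T2. The pseudocount of 0.1 gave 1957 higher and 1119 lower genes, and the filter of at least 20 reads, also chosen after seeing the data, 1535 and 969. Without a filter the counts stayed at 1625 and 970, since values below 1 cannot pass 2-fold with a pseudocount of 1. Of 237 genes of the lists or named that passed 2-fold, 218 did so after scaling to equal sums, 216 of 233 after scaling by reads and 221 with T1 in place of T2. There 3 changed sign, *UQCR-C2* with a log2 ratio of -0.014 against 1.14 with T2, *La* with -0.30 against 1.01 and *Nacalpha* with -0.64 against 1.16. *Nacalpha* was at -0.0024 with the mean of T1 and T2. The causes were not tested.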

Other observations

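Glycolytic enzymes, a list added after the values were seen, were lower in T3 as a group. Of 11 genes above the threshold, 8 were over 2-fold lower and 1 higher, with a median log2 ratio of -2.29 (-2.52 to -1.87 over the alternative settings). Summed over the 12 genes found, the level was 1636, 1071, 205, 428, 2791 and 6560 FPKM from T1 to T6, so it was lowest in T3. *Gapdh1* had 27.1 FPKM in T3 and 200 in T2, *Eno* (enolase) 35.9 in T3 and 199 in T2, and *Pglym78* (phosphoglycerate mutase) 24.3 in T3 and 141 in T2. The aldolase gene *Ald* lay within 2-fold, with 40.8 in T3 and 52.4 in T2, as did *Pgi*, with 21.1 in T3 and 14.5 in T2. The higher gene was *ImpL3*, which encodes lactate dehydrogenase, with 6.57 in T3 and 0.675 in T2 (2.18).

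Small nucleolar RNAs among the 7820 genes were mostly on the higher side in T3, with 96 of 127 over 2-fold higher and 2 lower (median 1.39). The shares over all genes were 20.8% and 12.4%. An RNA that reached 1 FPKM in T3 alone was kept through its T3 level, so the filter favours higher genes here. The part of the filter in this count was not tested. Most lie in introns of host genes and few reads cover each. *snoRNA:Or-CD12* (log2 ratio 3.63) rested on 50 reads in T3 and 2 in T2. Its miCLIP level went the other way, with 17.4 FPKM in T3 and 114 in T2. Of 101 other genes annotated simply as noncoding RNA, 46 were higher and 8 lower (median 0.92). Of 22 small nuclear RNAs, 18 lay within 2-fold, 0 were higher and 4 lower (median -0.56). Reads were few for some of them, such as *snRNA:U1:95Cc* among the lower ones, with 7 in T3 and 32 in T2. Among protein-coding genes, 1463 of 7468 were higher and 945 lower (median 0.13).

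Among the 81 genes with opposite changes in the assays, *La*, an RNA-binding protein gene, had 104 FPKM in T3 and 51.1 in T2 in mRNA-seq, but 46.4 in T3 and 96.2 in T2 in miCLIP. *Nacalpha* had 267 in T3 and 119 in T2 in mRNA-seq, and 87.8 in T3 and 319 in T2 in miCLIP. The mRNA direction of both rests on T2, since T1 held 128 FPKM of *La* and 416 of *Nacalpha*, above the T3 levels. Of the 48 genes that were higher in mRNA-seq and lower in miCLIP, 41 were also above T1 in T3 mRNA-seq, 27 of them over 2-fold. Of the other 33, all 33 were below T1, 22 of them over 2-fold. *La* and *Nacalpha* were chosen after their values were seen.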
